A study of Mus musculus with 6 samples.

Results

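The genes described are 8 enzymes of cholesterol synthesis, Hmgcs1, Idi1, Fdps, Fdft1, Sqle, Lss, Cyp51 and Dhcr7, and every probe set annotated to one of them alone was taken: 21 of the 45037 probe sets on the array. Of the 21, 18 were bright enough to be tested, among 27022 tested in all. The other 3 were left out for low signal. All samples were mouse embryoid bodies, the aggregates in which embryonic stem cells differentiate, harvested on day 6. They came from the Hoxb4i line, in which a tet-on cassette drives HOXB4 when doxycycline is added. One group of 3 arrays received doxycycline at 2 µg/ml for 48 hours from day 4 and the other group of 3 was not induced. The groups share the line and its cassette. Each holds 1 array of each of 3 replicas, which the labels name A, B and C. Arrays with the same letter are treated here as 1 experiment. No sample of a line without the cassette was analysed here, so HOXB4 and doxycycline itself cannot be told apart.

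Cholesterol is built from acetyl-CoA in a long chain of steps. The mevalonate steps lead to isoprenoid units, which are joined to farnesyl diphosphate and squalene. Squalene is closed into lanosterol, and lanosterol is trimmed to cholesterol in the endoplasmic reticulum. Most of these genes are under the transcription factor SREBP2, which is held in the endoplasmic reticulum by SCAP and INSIG proteins while sterols are plentiful and is cut free when they run low. The factor NF-Y, which binds CCAAT boxes, acts beside it at many of these promoters. In the embryo, cholesterol is needed for membranes and for Hedgehog signalling.

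Promoters are shown so that CCAAT boxes and sterol elements can be looked for in their letters. The RefSeq promoter table of build GRCm38.p6 matched 5 of the 8 genes: Hmgcs1, Idi1, Lss, Cyp51 and Dhcr7, and these are the ones shown. In the 250 bases before each start, on both strands, the letters CCAAT were present in 5 of 5 genes, for Dhcr7 in 1 of its 3 promoters. They were present in 37.5% of the 27025 genes of the table. The sterol element core TCACNCCAC was found in Hmgcs1 alone of the 5, as TCACCCCAC from 137 to 129 bases before the start, and in 1.22% of all genes of the table. The GC box GGGCGG was found in 5 of the 5 genes and in 35.4% of all, and the E box CACGTG in 1 of the 5, Dhcr7, and in 6.86% of all. No match of one motif shared bases with a match of another in these genes. Below, the strand of the gene is printed, the last base lies just before the start, and capitals mark the CCAAT box, read on either strand, and in Hmgcs1 the sterol element core as well. The stretches are chr13:119690101-119690350 (plus strand) for Hmgcs1, chr13:8885506-8885605 (plus) for Idi1, chr10:76531505-76531604 (plus) for Lss, chr5:4104698-4104797 (minus) for Cyp51 and chr7:143830114-143830213 (plus) for the Dhcr7 promoter with the match.
Hmgcs1: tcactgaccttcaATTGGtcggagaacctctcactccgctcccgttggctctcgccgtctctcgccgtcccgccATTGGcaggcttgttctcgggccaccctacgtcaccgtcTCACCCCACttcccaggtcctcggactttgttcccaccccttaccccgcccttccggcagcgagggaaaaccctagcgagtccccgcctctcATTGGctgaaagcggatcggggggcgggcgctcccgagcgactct
Idi1: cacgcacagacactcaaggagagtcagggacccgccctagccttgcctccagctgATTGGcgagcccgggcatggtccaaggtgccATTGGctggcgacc
Lss: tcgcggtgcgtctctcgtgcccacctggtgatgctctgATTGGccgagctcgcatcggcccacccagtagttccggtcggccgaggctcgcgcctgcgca
Cyp51: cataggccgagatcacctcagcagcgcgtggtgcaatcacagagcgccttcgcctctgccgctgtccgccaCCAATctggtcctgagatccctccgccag
Dhcr7: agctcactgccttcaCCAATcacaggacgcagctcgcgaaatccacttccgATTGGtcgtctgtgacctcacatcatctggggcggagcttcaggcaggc
A match describes these letters in this window and was not set against binding.

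Signals are MAS5 values in linear units, scaled by the authors to the same trimmed mean on every array. Differences are given on the scale log2(signal + 18.8), with limma and Benjamini-Hochberg adjustment over all 27022 probe sets at a threshold of 0.05. Signals of different probe sets are not comparable as amounts of RNA. A gene with several probe sets was represented by its brightest, and the other probe sets are given beside it. The median signal per array was 92.0 to 108.6. The uninduced array of A stood apart in RNA quality, with an Actb 3' to 5' control ratio of 2.88, against 1.26 to 1.48 on the other arrays. Some of the results that rest on it are also given without it. Arrays are the only measure of error here, and their number limits the precision. Each experiment has 2 arrays, 1 with and 1 without doxycycline, so a comparison of experiments sets 2 arrays against 2. The design text counts the experiments as 3 biological replicates and does not say how they differed.

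Most of the 8 genes were low in experiment A. Their log2 differences ran between -1.55 and -0.10 for A minus B, between 0.12 and 1.15 for C minus A and between -0.45 and 0.08 for C minus B. For doxycycline they ran between -0.29 and 0.39, a range no narrower than that of C minus B. The signals were lowest in A and, in 6 of the 8, highest in B. Of the 8 genes, 8 had their lowest of 6 values on an array of A, where 31.7% of the 12452 tested genes did and 44.7% of the 2406 at least as bright as the dimmest of the 8. Of the 8 genes, 6 had their highest on an array of B, where 26.6% did. The 2 exceptions at the top were Idi1, highest on the uninduced array of C, and Dhcr7, highest on the uninduced array of A. In 5 of the 8 genes both arrays of A lay below, and both arrays of B above, all other arrays, which was so for 2.22% of tested genes.

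**Figure D1:**
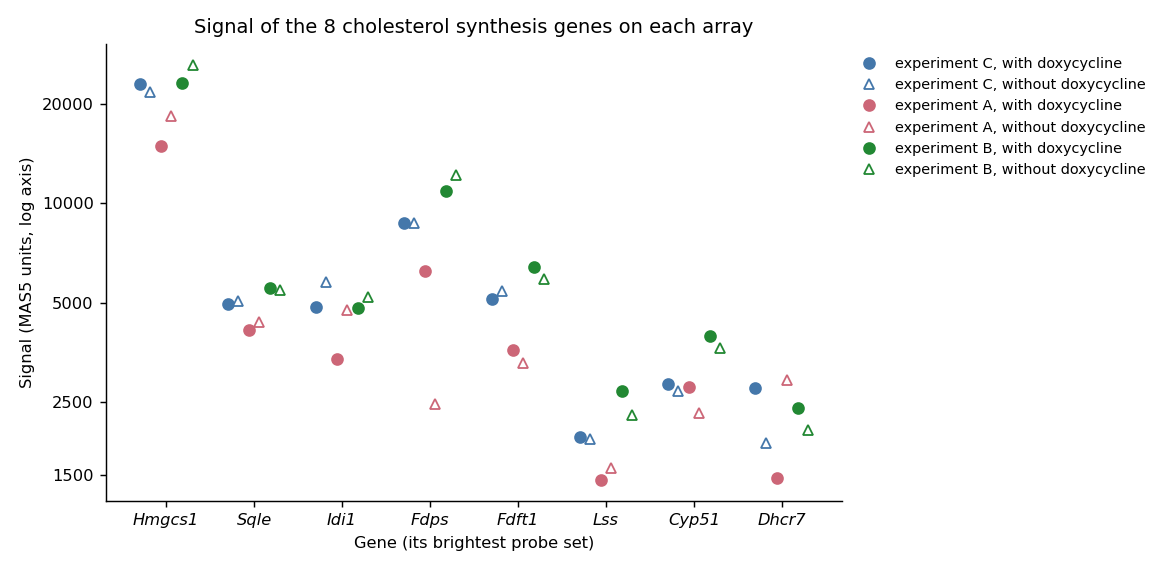
Signal (MAS5 units, log axis) of the brightest probe set of each of the 8 genes on the 6 arrays; filled circles are arrays with and open triangles arrays without doxycycline, and colours mark experiments C, A and B. For every gene the lowest point is an array of experiment A, and the 2 marks of an experiment lie farthest apart in A for Fdps and Dhcr7.

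HMG-CoA synthase, encoded by Hmgcs1, makes the HMG-CoA from which mevalonate is formed. On probe set 1433443_a_at its signal with doxycycline was 23024 in C, 14906 in A and 23073 in B, and without doxycycline it was 21786 in C, 18438 in A and 26285 in B. Both arrays of A were below the other 4 arrays, and the induced and uninduced groups overlapped. The log2 difference A minus B was -0.57 with a 95% interval of -0.87 to -0.27 (limma, adjusted p = 0.0532). The F test over the 3 experiments passed on this probe set (adjusted p = 0.0496). It also passed on 1433445_x_at (adjusted p = 0.0283), where A minus B was -0.64 (adjusted p = 0.0314) with signals of 12750 and 13430 in A and of 18893 and 21918 in B. The suffix x marks probes that can bind other sequences.

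The other Hmgcs1 probe sets did not all run the same way. On 1433446_at the signal averaged 3612 in A and 5914 in B, with A minus B at -0.73 (limma, adjusted p = 0.0903). On 1433444_at A minus B was -0.24 (adjusted p = 0.465). The dimmest, 1441536_at, pointed the other way: A averaged 716 and B 427, a log2 difference of 0.56 (adjusted p = 0.351), with its highest value, 1044, on the uninduced array of A. Over the 6 arrays this probe set correlated at -0.66 to 0.50 with the 4 others of the gene, which correlated at 0.09 to 0.85 among themselves (Pearson r of log2 signals, across the same 6 arrays, given as a description).

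IDI1 turns isopentenyl diphosphate into its isomer, the starter unit of isoprenoid chains. With doxycycline, Idi1 on 1451122_at stood at 4839 in C, 3369 in A and 4803 in B; without doxycycline it stood at 5761 in C, 4754 in A and 5193 in B. The 2 arrays of A were the lowest of the 6, and B lay no higher than C. A minus B was -0.32 with an interval of -0.69 to 0.05 (limma, adjusted p = 0.269). On the second probe set, 1423804_a_at, the experiments averaged 2258 in C, 2437 in A and 2360 in B, so that no order appeared.

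Fdps had the widest spread of the 8 genes. It encodes farnesyl diphosphate synthase, at the branch between sterols and other isoprenoids. Its signal on 1423418_at with doxycycline was 8732 in C, 6214 in A and 10928 in B. Without doxycycline it was 8741 in C, 2464 in A and 12176 in B. The 6 arrays separated by experiment, A lowest and B highest, with no overlap. A minus B was -1.55 with an interval of -2.29 to -0.82 (limma, adjusted p = 0.0411), a ratio of 0.340, and the F test passed (adjusted p = 0.0365). The value leans on the uninduced array of A: A minus B was -0.85 when it was left out and -2.26 when the induced one was. Neither of these fits measures the spread within A. The second Fdps probe set, 1438150_at, had signals of 1.2 to 5.0 on all arrays and was not tested.

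FDFT1, squalene synthase, joins farnesyl units in the first step committed to sterols. With doxycycline, Fdft1 on 1448130_at had signals of 5140 in C, 3589 in A and 6428 in B, against 5435 in C, 3283 in A and 5877 in B without doxycycline. Again A was lowest and B highest on both arrays of each. A minus B was -0.84 with an interval of -1.18 to -0.49 (limma, adjusted p = 0.0279), the F test passed (adjusted p = 0.0239) and C minus A was 0.62, just above the threshold. On 1438322_x_at the F test passed too (adjusted p = 0.0476), with means of 3635 in C, 4088 in A and 6185 in B. There C rather than A was the lowest, and C minus B, at -0.76, passed (adjusted p = 0.0310). The remaining Fdft1 probe sets, 1438918_at and 1438919_x_at, lay between 3.7 and 116 and were not tested.

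SQLE, squalene epoxidase, is the oxygen-dependent gate to ring closure. Sqle has 1 probe set, 1415993_at, with signals of 4960 in C, 4131 in A and 5537 in B with doxycycline, against 5067 in C, 4359 in A and 5452 in B without. The experiments stood in the same order as for Fdft1, without overlap, in a narrow range. A minus B was -0.37 with an interval of -0.71 to -0.04, which did not pass after adjustment (limma, adjusted p = 0.175).

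LSS closes squalene epoxide into lanosterol. Lss on 1420013_s_at had signals of 1962 in C, 1450 in A and 2695 in B with doxycycline, against 1924 in C, 1580 in A and 2281 in B without. Its arrays also separated by experiment, with A lowest and B highest. A minus B was -0.70 with an interval of -1.13 to -0.28 (limma, adjusted p = 0.0764). The other tested probe sets did not show that order. On 1426913_at the highest signal, 1038, was on the uninduced array of A, and A minus B was -0.11; on the dim 1420014_at, at 4.3 to 124, A minus B was 1.13 with an interval of -0.22 to 2.49.

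CYP51 is the demethylase that acts first on lanosterol. Cyp51 on 1450646_at had signals of 2830 in C, 2780 in A and 3949 in B with doxycycline, against 2702 in C, 2313 in A and 3648 in B without. B was above all other arrays, while A and C overlapped. A minus B was -0.58 with an interval of -0.95 to -0.20 (limma, adjusted p = 0.0900). It was -0.26 on 1422533_at and -0.22 on 1422534_at, neither past the threshold.

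Dhcr7 did not separate by experiment over the 6 arrays, and its values turn on the 2 arrays of A. It encodes the last enzyme of one branch, which reduces 7-dehydrocholesterol to cholesterol. Its signal on 1448619_at was 2758 in C, 1470 in A and 2400 in B with doxycycline, against 1874 in C, 2909 in A and 2062 in B without. The lowest and the highest value were the 2 arrays of A, so the experiments overlapped throughout. A minus B was -0.10 with an interval of -0.87 to 0.66 (limma, adjusted p = 0.875), and the F test gave an adjusted p of 0.940. When the uninduced A array was left out, A minus B was -0.78. When the induced one was left out instead, A minus B was 0.58. Neither fit measures the spread within A, which then has only the array that was kept.

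In counts, the F test over experiments passed on 5 of the 18 tested probe sets, 2 of Hmgcs1, 1 of Fdps and 2 of Fdft1, where 11.6% of all tested probe sets passed. A minus B passed on 3, all lower in A, against 2.09% of all probe sets lower and 1.91% higher. C minus A passed on 0, against 2.52% higher and 4.29% lower, and C minus B passed on 1, lower in C, against 5.26% lower. These comparisons share arrays and are not independent. Fits with 1 array left out do not measure the spread within its experiment. Both arrays of A lay below both arrays of B on 11 of the 18 probe sets, against 23.4% of all, and above them on 1, against 32.3%. By gene, this was 7 of 8 lower, against 26.3% of tested genes and 37.7% of the bright ones. With the intensity trend left out of limma's moderation, the F test passed on 0 of the 18 and on 4.39% of all probe sets. It passed on 3 with log2(signal + 1) (9.7% of all), on 2 without a filter (5.03%) and on 2 after quantile normalization (11%). Leaving out the uninduced A array gave 13 (32.4% of all), and leaving out the induced one 11 (51.1%). It passed on 1, that of Fdps, when any 1 of the 4 arrays of B and C was left out. The share of all probe sets was then 6.54% and 5.68% without the induced and the uninduced array of B. Leaving out either array of C gave 5.56% (induced) and 5.65% (uninduced).

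The median over the 8 genes was -0.57 for A minus B, 0.38 for C minus A and -0.18 for C minus B, on the log2 scale. Over all tested genes it was 0.06, 0.01 and 0.07, and over the 2406 bright genes -0.08, 0.05 and -0.00. Among arrays with doxycycline alone, a set without the array whose Actb ratio was 2.88, the median of A minus B was -0.67, and among arrays without doxycycline -0.52. After quantile normalization it was -0.41, with 8 of 8 genes still below 0 and an all-gene median of 0.02. When each gene was taken as the mean of all its probe sets, dim ones included, the medians were -0.32, 0.14 and -0.07. The size of the shift therefore depends on which probe sets stand for the genes.

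**Figure D2:**
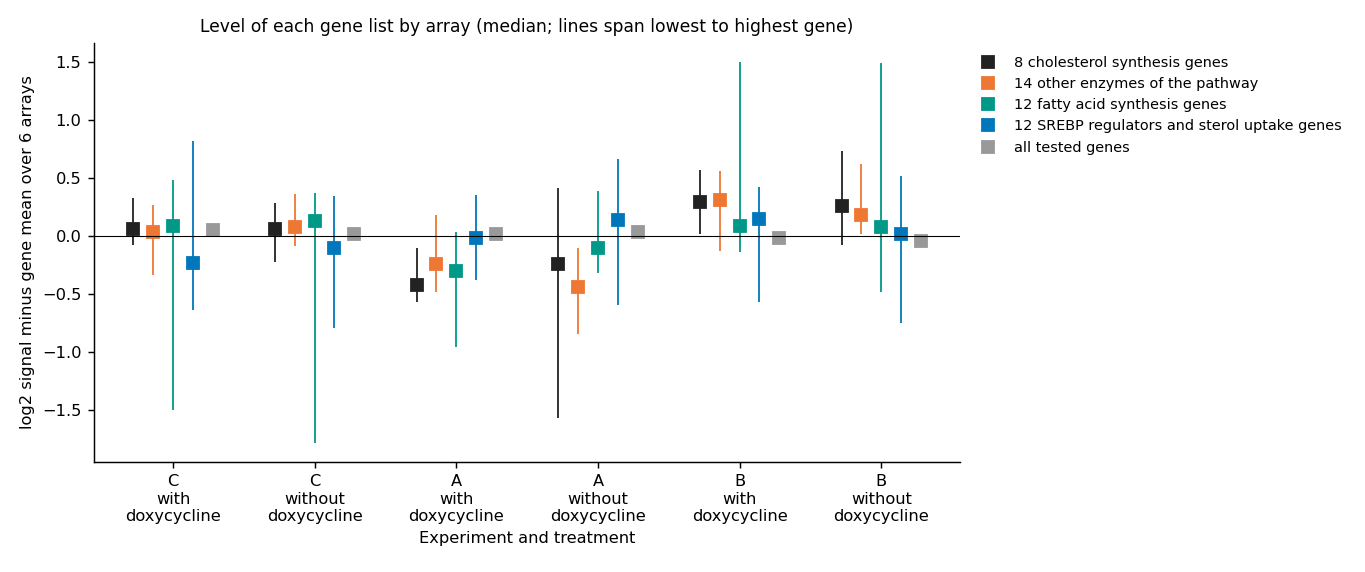
Level of gene lists on each array, as log2 signal minus the gene's mean over the 6 arrays; squares are medians over the genes and lines run from the lowest to the highest gene (no line for all tested genes). The 8 cholesterol synthesis genes stood at -0.42 and -0.24 on the arrays of A and at 0.29 and 0.26 on those of B, and the 14 other enzymes at -0.24 and -0.44 and at 0.31 and 0.18.

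On their brightest probe sets, the 8 genes varied together across arrays. Of their 28 pairs, 26 had a Pearson r above 0 over the 6 arrays and 19 an r above 0.5, with a mean of 0.59, a median of 0.72 and a range of -0.30 to 0.97. The mean r over all pairs of the 12452 tested genes was 0.006. Scaling every array to the same trimmed mean tends to keep that value near 0. It does not show how far bright genes in general vary together. Tested probe sets of the same gene did not always vary together. Their r was -0.67 to 0.18 for Lss, 0.15 to 0.61 for Cyp51, 0.40 for Idi1 and 0.50 for Fdft1. Among the 8 genes r was highest for Sqle and Lss (0.97), Sqle and Fdft1 (0.96), Fdft1 and Lss (0.93) and Hmgcs1 and Sqle (0.93). These are not all neighbouring steps, and the neighbours Idi1 and Fdps stood at 0.27. Dhcr7 gave the lowest values, -0.30 with Fdps and -0.11 with Cyp51. Without the uninduced array of A the mean was 0.76 and 28 of 28 pairs were above 0. These 6 points share arrays, scaling and experiment, so r is a description with no test.

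**Figure D3:**
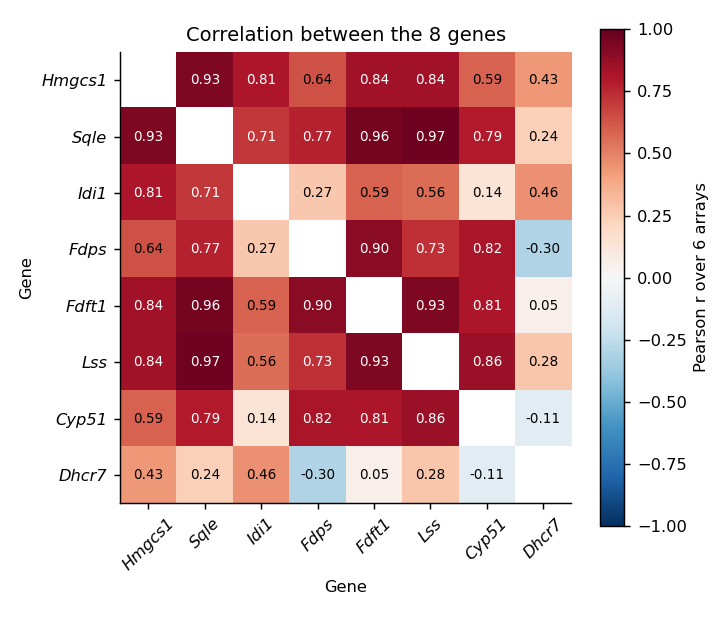
Pearson r of log2 signals over the 6 arrays for each pair of the 8 genes, coloured from -1 (blue) to 1 (red). Sqle, Fdft1 and Lss form the darkest block, at 0.93 to 0.97, and the row of Dhcr7 is the palest, at -0.30 to 0.46.

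Most other enzymes of the pathway were also lower in A than in B. Of 17 listed, 14 were tested and the others were not analysed here. Both arrays of A were below both arrays of B in 13 of the 14, beside 26.3% of all tested genes and 37.7% of the bright ones. The exception was Ggps1, which makes geranylgeranyl diphosphate for protein prenylation. The place of C varied: both its arrays were below both of B in 7 of the 14, beside 3493 of the 12452 tested genes. The lowest of the 6 values was on an array of A in 13 of 14 (31.7% of all and 44.7% of the bright genes). The highest was on an array of B in 13 of 14 (26.6% of all). In 10 of the 14 the lowest value was that of the uninduced A array, beside 2808 of the 12452 tested genes. The median A minus B was -0.62, C minus A 0.41 and C minus B -0.14. Over arrays with doxycycline alone these medians were -0.58, 0.27 and -0.25.

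The F test passed on 3 of these 14 genes, beside 14% of tested genes, and all 3 passed as lower in A than in B, beside 2.76% of tested genes lower. Pmvk, phosphomevalonate kinase, had signals of 699 and 633 in A against 1462 and 1520 in B, with and without doxycycline, a log2 difference of -1.14 (limma, adjusted p = 0.0266). Msmo1, a sterol methyl oxidase that acts later than CYP51, had 4781 and 4355 in A against 7553 and 7964 in B, a difference of -0.76 (adjusted p = 0.0315). It was also higher in C than in A, at 6927 and 6976 in C, with C minus A at 0.61 (adjusted p = 0.0470). Sc5d, the desaturase just before DHCR7, had 1498 and 1383 in A against 2685 and 2726 in B, a difference of -0.90 (adjusted p = 0.0430). For each of the 3 genes both arrays of A were the lowest of the 6 and both of B the highest. In all 3 the lowest value was on the uninduced array of A, and fits without it are not reported here.

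**Figure D4:**
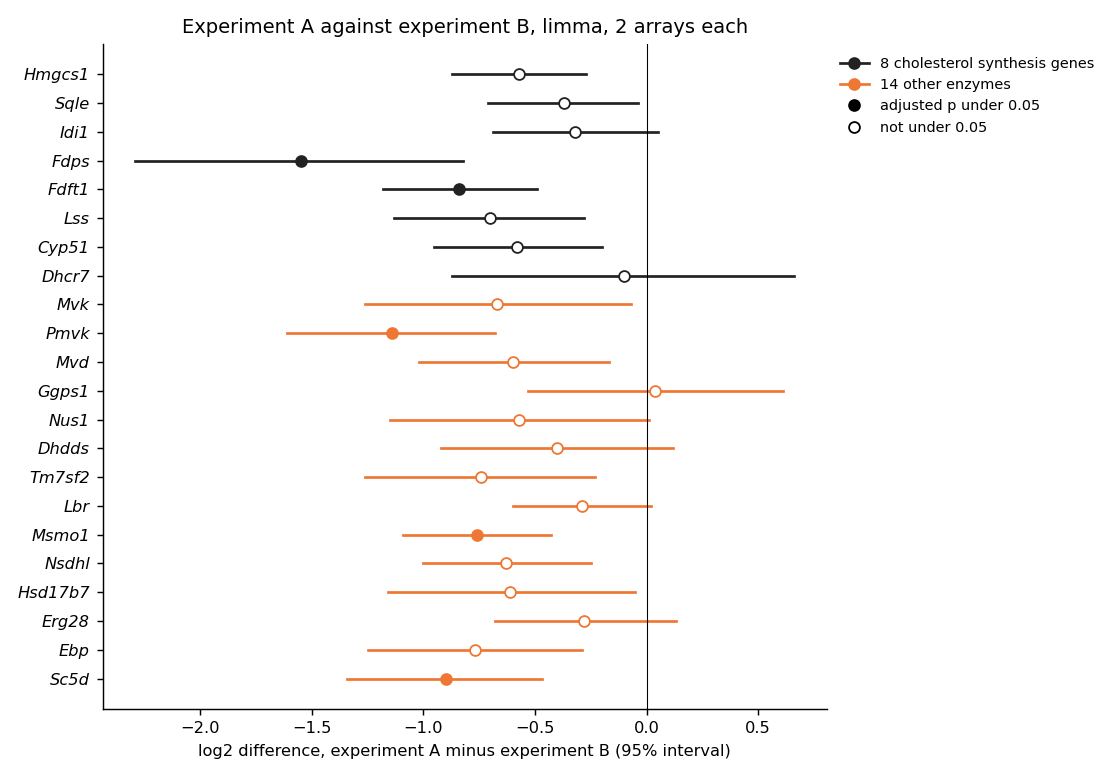
Log2 difference, experiment A minus experiment B, with 95% interval from limma (2 arrays each), for the 8 genes (black) and the 14 other enzymes (orange); filled points have an adjusted p under 0.05. All but Ggps1 lie left of 0; Fdps, Fdft1, Pmvk, Msmo1 and Sc5d are filled.

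The regulators of the pathway were not lower in A than in B as a list. Of 16 listed SREBP regulators and sterol uptake genes 12 were tested, with a median A minus B of -0.03, and both arrays of A lay below both of B in 4 (26.3% of all tested genes) and above them in 4 (32.9% of all). Srebf2, which encodes SREBP2, had signals of 2729 in C, 1689 in A and 2772 in B with doxycycline, against 2068 in C, 1381 in A and 2174 in B without. Its arrays of A were thus lowest, with A minus B at -0.68 (limma, adjusted p = 0.0701). Insig1, an SREBP target that retains SCAP, did not separate by experiment, with A minus B at 0.06 (adjusted p = 0.922) and its highest signal, 2998, on the uninduced array of A. Scap passed the F test with a different order (adjusted p = 0.0209): it was highest in C, at 1905 and 1361, and lowest in B, at 719 and 633. Stard4, a sterol carrier, passed as lower in C than in B, by -0.81 (adjusted p = 0.0259), and Npc1, which exports cholesterol from lysosomes, as lower in C than in A, by -1.16 (adjusted p = 0.0279).

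Part of the fatty acid genes were lower in A than in B, and the sterol efflux genes were not as a list. The 6 tested genes of LXR response, efflux and storage had a median A minus B of -0.03. Apoe, the lipoprotein component, passed the F test among them (limma, adjusted p = 0.00156) and was lowest in C, at 2983 and 2856, against 10183 and 8383 in B. The 12 tested fatty acid synthesis genes had a median A minus B of -0.29 and C minus A of 0.33, and both arrays of A lay below both of B in 7, beside 26.3% of all tested genes and 37.7% of the bright ones. Both arrays of A were lowest and both of B highest in 4 of the 12, beside 5 of the 14 other sterol enzymes and 2.22% of all tested genes. The lowest value was on an array of A in 8 of the 12. Me1, the NADPH-producing malic enzyme, passed the F test (adjusted p = 0.000734), with 464 and 380 in C, 1260 and 1775 in A and 3856 and 3813 in B.

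Doxycycline gave no call in the 8 genes. The count past the threshold was 0 of 18 probe sets, as it was for all 27022 probe sets (0%). At an unadjusted p under 0.05 it was 0 of 18, against 0.511% of all; limma with the experiment as a replicate block gave 0 and 0 of 18, against 0% and 3.94% of all. The median over the 8 genes of the log2 difference, with minus without doxycycline, was 0.01, and 0.02 over all tested genes. Within experiments it was 0.01 in C, -0.10 in A and 0.07 in B. By point estimate, doxycycline arrays were higher in 4 genes and lower in 4, and over all 18 probe sets higher in 5 and lower in 13. With all probe sets of a gene averaged, the median over the 8 genes was -0.12. Leaving out 1 array unbalances the experiments and moved the median between -0.16 (uninduced A array left out) and 0.22 (induced A array left out). It was -0.14 and 0.11 without the induced and the uninduced array of B.

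The intervals limit the size of any difference with doxycycline. In the fit with the replicate block the half-width of the 95% interval was 0.24 to 0.62 over the 8 genes, with a median of 0.30, and without the block 0.43 to 1.27. For Sqle the difference was -0.03 with a blocked interval of -0.30 to 0.25, and for Fdft1 it was 0.06 with a blocked interval of -0.23 to 0.34. For Hmgcs1 it was -0.14 with a blocked interval of -0.38 to 0.11. For Fdps the blocked interval was wider, -0.21 to 0.99 around 0.39, and for Dhcr7 -0.69 to 0.56 around -0.07. On the brightest probe sets the blocked intervals of all 8 genes leave out a change of 2-fold in either direction, that of Fdps only just. Without the block the interval of Fdps was -0.88 to 1.66, which takes in a 2-fold rise. Nor do the blocked intervals leave out 2-fold on every probe set. On Hmgcs1 1441536_at the blocked interval was -1.23 to 0.06, and over all 18 probe sets the lower limits reached -1.64.

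Within experiments the 8 genes did not move together with doxycycline. Idi1 was lower with doxycycline in 3 of 3, by log2 differences of -0.25 in C, -0.49 in A and -0.11 in B (limma with the block, unadjusted p = 0.0609, adjusted p = 0.930). Its second probe set stood at -0.41 in C, -0.36 in A and 0.09 in B. Cyp51 was higher in 3 of 3 on 1450646_at, by 0.07, 0.26 and 0.11 in C, A and B, but its 2 other probe sets were lower in 3 of 3. On 1422533_at these differences were -0.22, -0.25 and -0.33. Of the 18 probe sets, 5 were lower in 3 of 3 experiments, where 13.2% of all were, and 1 was higher, where 12.8% were.

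On the brightest probe sets, the widest differences within an experiment lay in A and pointed in opposite directions. In A, Fdps was higher with doxycycline by 1.33 and Dhcr7 lower by 0.98 (log2 difference -0.98); in C they stood at -0.00 and 0.55 and in B at -0.16 and 0.22. Among the other tested probe sets wider ones than that of Dhcr7 occurred in each experiment, -1.74 in B for Lss 1420014_at, -1.39 in A for Hmgcs1 1441536_at and -1.11 in C for Cyp51 1422534_at. The differences in A involve the array with the Actb ratio of 2.88, and its part in them was not tested. Among the other lists, Srebf2 was higher with doxycycline in 3 of 3, by 0.40 in C, 0.29 in A and 0.35 in B (limma with the block, unadjusted p = 0.0401, adjusted p = 0.930). Rnf139, a ubiquitin ligase of the endoplasmic reticulum named after its values were seen, was the only other gene of the regulator list with an unadjusted p under 0.05 in the blocked fit (0.0449, adjusted p = 0.930), where 3.08% of all tested genes had one.

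**Figure D5:**
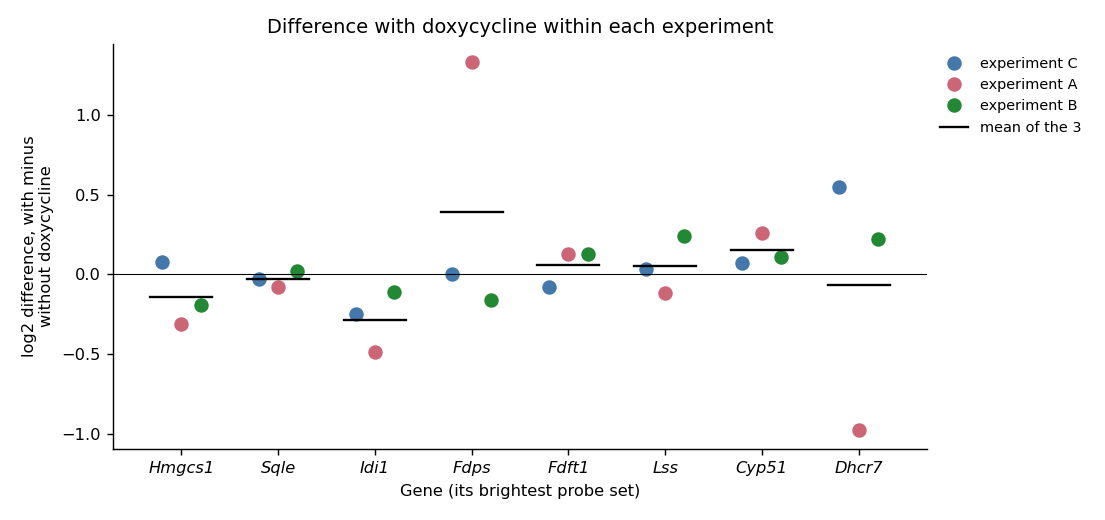
Log2 difference, with minus without doxycycline, of the brightest probe set of each gene within experiments C, A and B (points) and the mean of the 3 (bars). Most points lie within 0.5 of 0; the points of A for Fdps, at 1.33, and Dhcr7, at -0.98, lie farthest from it.

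The genes whose pattern was most like the mean of the 8 were taken from 7537 tested genes with an SD of at least 0.3 over the 6 arrays, leaving out all lists above. They were Akt2, a kinase of insulin signalling (r = 0.993), Cdk5, a cyclin-dependent kinase best known from neurons (0.990), Plagl1, an imprinted zinc finger gene (0.980), Hoxb5os (0.979), Pag1, a membrane adaptor (0.977), Rprm (0.973), Nnat, an imprinted gene of neural tissue (0.970), and Cyria (0.969). Plagl1 had signals of 7692 in C, 2260 in A and 11678 in B with doxycycline, against 6635 in C, 1470 in A and 12645 in B without, the same order in a wider range. In all, 1.38% of the 7537 genes had an r above 0.9 with the mean of the 8. Over 6 arrays in 3 experiments such values describe the order of the arrays and carry no test.

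Marker genes of several cell types also differed between the experiments. In a bulk sample, fewer cells of a type and less RNA per cell cannot be told apart. Of all tested genes, 26.3% had both arrays of A below both of B, and 32.9% had them above. Both arrays of C lay below both of A in 3471 of the 12452 tested genes and above them in 3659. The marker counts below are of the same kind. All 6 tested erythroid markers were lower on both arrays of A than on both of B. Their summed signal was 2949 and 442 in A against 26317 and 36800 in B, with and without doxycycline. In C that sum was 1465 and 1621. The sum is mostly Hbb-bh1. The median centred log2 level of the 6 markers, with and without doxycycline, was -0.28 and -0.79 in C, -0.49 and -1.91 in A and 1.40 and 2.37 in B. B was thus highest, as in most of the 8 genes, while A and C overlapped. Both arrays of C were above both of A in 2 of the 6 markers, near the share of all tested genes. All 6 endothelial markers were lower in A than in B as well, with sums of 1315 and 508 in A against 5261 and 4890 in B. In C their sums were 273 and 693. Of the 5 neural markers 4 were higher in A than in B, and of the 7 visceral endoderm markers 3 were higher and 3 lower. All 7 visceral endoderm markers were lower in C than in A. Of the 6 cardiac markers 2 were lower in A than in B, near the share of all tested genes, and 3 were lower in C than in A. Of the 5 pluripotent markers 4 were higher in A than in B, and 4 were higher in C than in A. The 5 proliferation markers summed to 33673 and 31102 in A against 29186 and 33370 in B. No marker was at 0 on any array, the lowest values being 1.1 for Hbb-y and 1.8 for Alas2, both in A. The part of cell mix in the levels of the 8 genes was not tested.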

How the data were processed

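The values the authors deposited are intensities, 1 for each probe set on each array, of the Affymetrix Mouse Genome 430 2.0 array. The submitters' processing notes credit it to MAS5, with no version stated in the sources used here. With the top and bottom 2% of values removed, each array averaged 500. Of 45101 probe sets, 64 controls were left out. Values were analysed as log2(signal + 18.8), the offset being the 20th percentile of all values. Probe sets with a mean under the 40th percentile were not tested. Gene names come from the platform annotation at GEO, updated by Entrez ID to RefSeq symbols (34741 of 34945 probe sets with 1 gene; 932 had several genes and 9160 none).

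limma 3.58.1 in R 4.3.3 (empirical Bayes with intensity trend, two-sided, Benjamini-Hochberg) was fitted to doxycycline as group means, and to the experiments with doxycycline as a term. The code was tested on simulated data. The labels give each array a replica letter, and arrays with the same letter were taken as 1 experiment. The deviations of same-letter arrays from their group means correlated at 0.445 to 0.671. Those of different letters correlated at -0.527 to -0.117. P-values measure the spread between these arrays.

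The members and lists were chosen with earlier results of these data known. The genes named are all member probe sets, list genes past the threshold, Srebf2, Insig1 and the 8 genes of most similar pattern. Some genes the rule covers are not reported here. Alternatives were the offset, the filter, quantile normalization, the trend, the replicate block, the probe sets of a gene and leaving out arrays.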

Additional observations from a re-analysis of the deposited data

How the results depend on the processing

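The order of A below B held for the median of the 8 genes under every alternative run, while the number of calls did not. The median A minus B was -0.57, -0.41 after quantile normalization, -0.32 with all probe sets of a gene averaged, and -0.74 to -0.51 with 1 array left out. C minus A was 0.38, 0.14 with probe sets averaged and 0.23 to 0.52 with 1 array left out; C minus B was -0.18, -0.07 and -0.23 to -0.17. The F test passed on 5 of 18 probe sets, on 3 with log2(signal + 1), on 2 without a filter, on 2 after quantile normalization, on 0 without the intensity trend, and on 1 to 13 with 1 array left out. Calls of A minus B numbered 3, but 1 without a filter, 1 after quantile normalization, 0 without the trend and 0 to 10 with 1 array left out. For C minus A they numbered 0, but 1 with log2(signal + 50), 1 with no doxycycline term and 0 to 6 with 1 array left out; for C minus B 1, but 0 without the trend and 0 to 9. Without the induced array of A, A minus B turned to 0.13 for Lss 1426913_at and to 0.58 for Dhcr7. Without the uninduced one these values were -0.36 and -0.78.

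Doxycycline gave 0 calls in every alternative, the replicate block included. Its median over the 8 genes was 0.01, also 0.01 with the replicate block, -0.12 with all probe sets averaged and -0.16 to 0.22 with 1 array left out. Leaving out an array leaves 1 array in that experiment, which is then assumed to vary like the others. The cause of these changes was not tested. Detection calls were not analysed here, so dim probe sets have no stated background.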
